A study of Mus musculus with 4 samples.

Results

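The genes described here are 33 symbols of the amino acid stress response and of protein synthesis, out of 24421 in the deposited count tables. They were chosen by name: 5 regulators of the response led by the transcription factor Atf4, 8 enzymes of amino acid synthesis, and the 20 genes of cytosolic aminoacyl-tRNA synthetases. All 33 were present in the tables and passed the filter on low counts. They were measured by RNA sequencing in regulatory T cells (Tregs) of 2 pairs of parabiotic mice, in 2 libraries of Tregs from omental tumors and 2 libraries of Tregs from spleen. The omentum is a fatty fold of the abdominal lining on which peritoneal tumor cells settle. In each pair a CD45.1+ mouse had received EG7.1.15 tumor cells into the peritoneal cavity and was joined by surgery to a tumor-free CD45.1- partner of the strain B6 Foxp3-DTR/GFP, whose Tregs carry a green fluorescent reporter and a diphtheria toxin receptor. The libraries of both tissues came from the tumor-bearing mouse at day 14 after injection, both mice having been joined for 14 days, and held the partner's cells, sorted as live, CD45.1-CD45.2+, B220- and CD4+CD25+ cells with the Foxp3 reporter. Resident Tregs of the host, which are CD45.1+, were not in the gate, so the gate was set for cells that had arrived through the shared blood. Transcripts of other cell types were also present in the libraries, as given below. Mouse 2 and mouse 3 each gave 1 library per tissue, and the sources used here state neither age nor sex.

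When a cell runs short of an amino acid or its endoplasmic reticulum is strained, kinases phosphorylate the translation factor eIF2. General translation then slows while Atf4 mRNA is translated more, so that ATF4 activity is set largely at the level of protein. ATF4 binds C/EBP-ATF response elements, often with C/EBP partners, and raises transcription of amino acid transporters, of enzymes that make asparagine, serine, glycine and proline, and of many tRNA synthetases, the enzymes that load each amino acid onto its tRNA. In activated T cells the same genes also follow growth signals through mTORC1.

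No gene among the 33 passed the threshold between omental tumor and spleen. In edgeR's quasi-likelihood test 0 of 33 were called at an adjusted p of 0.05, against 1.32% of the 16322 genes tested (1.09% higher and 0.227% lower in omental tumor). That split was 178 genes higher and 37 lower with TMM factors, and 188 higher and 13 lower with upper-quartile factors. At an unadjusted p under 0.05 1 member, Asns, was higher and 0 were lower, against 4.15% and 4.85% of all genes. Asns was called higher by DESeq2, by limma-voom and by the bias-adjusted form of edgeR's fit, and no member was called lower by any of them. The median log2 fold change was -0.33 over the members and 0.11 over all genes tested, with 7 members positive and 26 negative. The unit of levels is CPM, read counts divided by each library's gene total and TMM factor, and fold changes are log2 of omental tumor over spleen. Since these are bulk samples, fewer cells of a type and less RNA per cell cannot be told apart.

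The plot of levels by library shows how the groups lay to each other. Both omental libraries stood above both spleen libraries in 3 members (Asns, Chac1 and Pycr1), against 16.4% of all genes tested. Both stood below both spleen libraries in 6 (Trib3, Qars, Farsa, Farsb, Sars and Wars), against 25.4% of all genes. The other 24 members overlapped between the tissues.

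**Figure D1:**
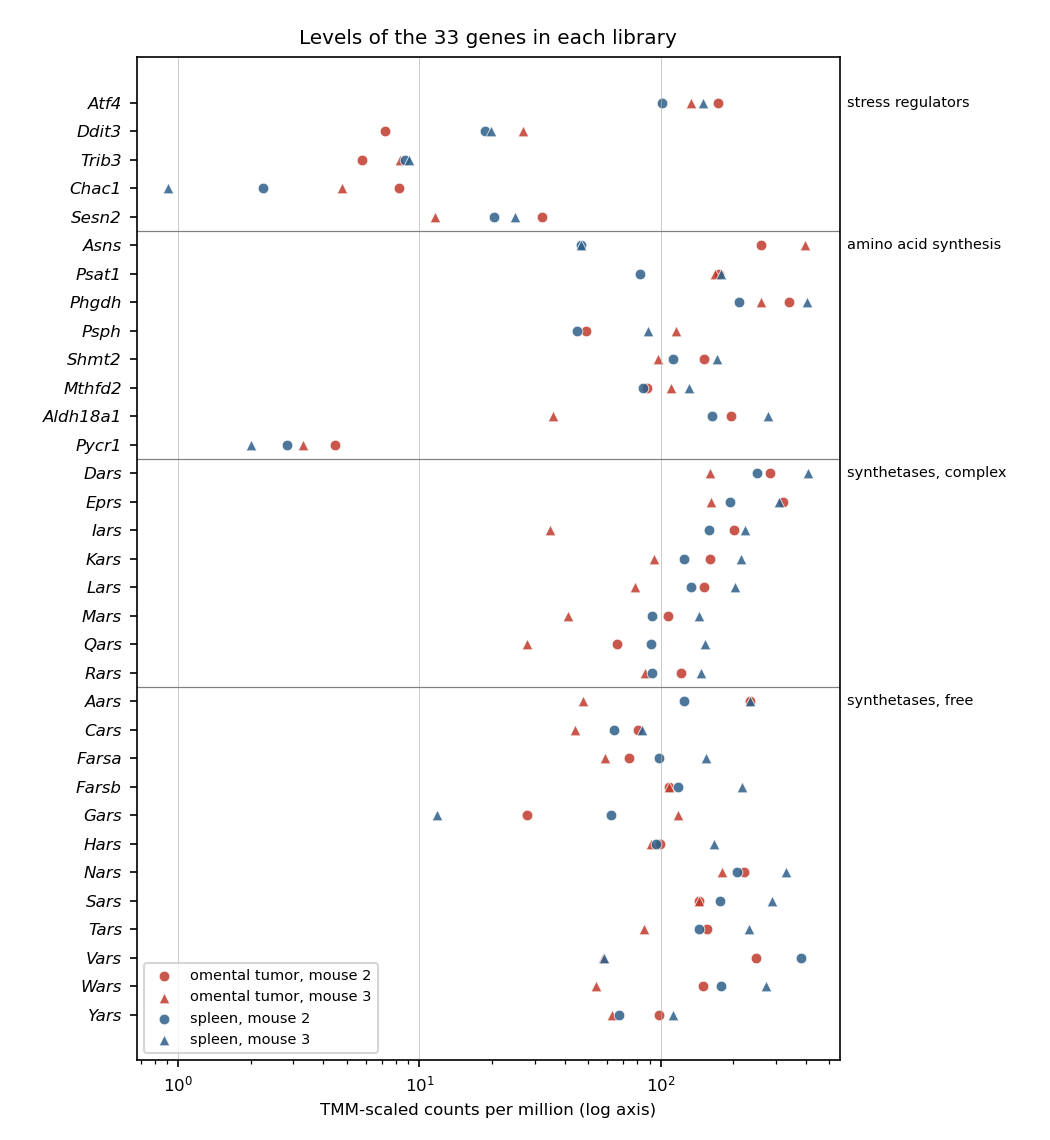
Levels of the 33 genes in TMM-scaled CPM on a log axis, with 1 row per gene grouped by role. Red points are omental tumor and blue points spleen, circles mouse 2 and triangles mouse 3. Asns is the gene in which both red points lie farthest to the right of both blue ones, at 259 and 396 against 46.6 and 46.8 CPM.

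Asns, which encodes the enzyme that makes asparagine from aspartate and glutamine (chromosome 6, 7675169 to 7693254), stood far apart from the other members. It had 259 and 396 CPM in the omental libraries of mouse 2 and mouse 3, against 46.6 and 46.8 CPM in the spleen libraries of the same mice. The spleen libraries were nearly equal, and both omental libraries lay several times above them. Omental tumor averaged 328 ± 96.8 CPM and spleen 46.7 ± 0.116 CPM (SD, n = 2 each). The log2 fold change was 2.81 (SE 0.86, adjusted p = 0.0753), which missed the threshold, and 2.29% of all genes tested had a fold change as high or higher. The difference was present in both mice, with a log2 ratio of 2.45 for mouse 2 and of 3.06 for mouse 3. Whether Asns passed depended on the fit: the adjusted p was 0.0405 with the bias-adjusted form of glmQLFit, an alternative chosen after seeing the data in which 1.16% of all genes were called higher, 0.00119 with DESeq2, 0.0213 with limma-voom and 0.0243 with upper-quartile factors. With the mouse as a block the log2 fold change was 2.78 and the adjusted p 0.0851, and it was 0.110 with RLE factors, 0.132 with library totals alone and 0.170 with no filter on low counts. It was 0.0174 without the omental library of mouse 2, and lay between 0.344 and 0.896 without any other library, with log2 fold changes of 2.38 to 3.14 over all 4 omissions.

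The promoter of Asns is shown because it carries the motif shared by a set of these genes. RefSeq promoter sequences, which run from 250 bases before to 50 after the transcription start on build GRCm38.p6, were at hand for 25 of the 33 members. They were searched on both strands for TGATGNAA, the core of the C/EBP-ATF response element, which overlaps no other motif searched. It occurred in the promoters of 9 members (36.0%), against 4.51% of all 27025 genes in the same table. Since the members were chosen by name around the ATF4 response, these shares describe the list and are no test. The members without a promoter sequence at hand were all synthetases. The 250 bases before the Asns start (minus strand, chr6:7693210-7693459) are printed 5′ to 3′ with the match, at -23 to -16 from the start, in capitals.
Asns promoter: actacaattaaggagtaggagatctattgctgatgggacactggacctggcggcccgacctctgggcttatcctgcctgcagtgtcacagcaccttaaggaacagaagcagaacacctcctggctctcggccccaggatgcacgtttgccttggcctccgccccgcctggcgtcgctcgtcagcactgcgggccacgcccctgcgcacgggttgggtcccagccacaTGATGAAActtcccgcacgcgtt

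The matches of 8 members are printed with up to 10 flanking bases on each side, turned so that the motif reads in the same direction in each, and the capitals mark the motif. They are shown to let the shared core be read beside its flanks, which differ.
Asns, chr6:7693215-7693242, minus strand: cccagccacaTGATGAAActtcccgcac
Chac1, chr2:119351039-119351066, minus strand: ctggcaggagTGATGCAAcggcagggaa
Trib3, chr2:152344029-152344056, plus strand: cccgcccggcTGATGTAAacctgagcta
Pycr1, chr11:120643834-120643861, minus strand: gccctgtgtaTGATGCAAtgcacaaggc
Iars, chr13:49682127-49682154, minus strand: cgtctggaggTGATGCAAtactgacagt
Gars, chr6:55037961-55037988, minus strand: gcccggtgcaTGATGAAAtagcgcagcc
Tars, chr15:11399656-11399683, plus strand: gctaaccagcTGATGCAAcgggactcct
Yars, chr4:129189896-129189923, plus strand: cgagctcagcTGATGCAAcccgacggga

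Members with the motif did not share 1 direction. Of the 9, 4 had positive log2 fold changes (Asns, Chac1, Pycr1 and Gars) and 5 negative ones (Trib3, Iars, Aars, Tars and Yars), with a median of -0.16. The 16 members whose promoter held no match had a median of -0.19. Of the 9, both omental libraries lay above both spleen libraries in 3 (Asns, Chac1 and Pycr1) and below both in 1 (Trib3), and 5 overlapped. Of the 16 without a match 0 lay above, 4 lay below and 12 overlapped. Over all genes tested 16.4% lay above and 25.4% below. Chac1 and Pycr1 rested on few reads, and a link between motif and direction was not tested. A match in this window is a description of the sequence and says nothing of whether ATF4 binds there. Atf4, Ddit3 and Psat1 were among those without these letters in the window.

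Of the 5 regulators, Chac1 alone had a log2 fold change above 1, and none passed the threshold. Atf4 (chromosome 15, 80255184 to 80257541) had 172 and 134 CPM in the omental libraries of mouse 2 and mouse 3, against 102 and 149.7 CPM in spleen. The omental values lay at either side of the spleen value of mouse 3, so the tissues overlapped. The log2 fold change was 0.28 (SE 0.79, adjusted p = 0.926). These are mRNA levels, and the protein, on which the response turns, was not measured.

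Chac1, an enzyme that breaks down glutathione and a sensitive target of ATF4, had 8.24 and 4.79 CPM in omental tumor, against 2.24 and 0.912 CPM in spleen. These were low levels, resting on 63 and 19 reads in omental tumor and on 23 and 10 reads in spleen, and both omental libraries were above both spleen libraries. The log2 fold change was 2.04 (SE 1.19, adjusted p = 0.628), with a log2 ratio of 1.51 for mouse 2 and of 1.60 for mouse 3.

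Ddit3, which encodes CHOP, the factor that takes part in death under prolonged stress, had 7.20 and 26.7 CPM in omental tumor, against 18.7 and 19.7 CPM in spleen. The omental libraries bracketed the spleen libraries, with the lowest value in mouse 2 and the highest in mouse 3 (log2 fold change -0.19, adjusted p = 0.953). Ddit3 lies tail to tail with Mars. Of its annotated exon bases 10.9% overlap Mars, Gm4189 or another entry named Ddit3 on the same strand. Mars and Gm4189 lie on the opposite strand, and in unstranded libraries reads of a stretch shared with them cannot be told apart. Trib3, a pseudokinase that restrains ATF4, had 5.76 and 8.33 CPM in omental tumor, against 8.68 and 9.03 CPM in spleen. Both omental values were lower, by little (log2 fold change -0.34, adjusted p = 0.928). Sesn2, a leucine sensor that holds back mTORC1, had 32.3 and 11.6 CPM in omental tumor, against 20.4 and 24.8 CPM in spleen. Its omental libraries also lay at either side of the spleen libraries, with mouse 2 high and mouse 3 low (log2 fold change -0.034, adjusted p = 0.990).

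The 7 enzymes of amino acid synthesis other than Asns gave log2 fold changes of -0.93 to 0.68, none past the threshold. Phgdh, Psat1 and Psph carry out the 3 steps from a glycolytic intermediate to serine. Phgdh, the first enzyme, had 339.7 and 261 CPM in omental tumor, against 210.1 and 403 CPM in spleen. Both omental values lay between the spleen values (log2 fold change -0.029, adjusted p = 0.992). Of the 50-base windows of its transcript, 63.1% also occur in transcripts annotated to other loci, such as Gm7901, and since the tables set alignments that were not unique apart from the genes, the level of Phgdh is uncertain and could be understated.

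Psat1, the second enzyme, had 175 and 168 CPM in omental tumor, against 82.0 and 177 CPM in spleen. The omental libraries were nearly equal to each other and to the spleen library of mouse 3, and only the spleen library of mouse 2 was lower (log2 fold change 0.40, adjusted p = 0.901). Psph, the last enzyme, had 48.8 and 115 CPM in omental tumor, against 45.2 and 88.6 CPM in spleen. It differed more between mice than between tissues, being higher in mouse 3 in both (log2 fold change 0.29, adjusted p = 0.921).

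Shmt2 and Mthfd2, mitochondrial enzymes that turn serine into glycine and pass its carbon to folate, overlapped between tissues. Shmt2 had 152 and 97.6 CPM in omental tumor, against 112 and 172 CPM in spleen (log2 fold change -0.18, adjusted p = 0.953). Mthfd2 had 87.5 and 111 CPM in omental tumor, against 84.2 and 131 CPM in spleen (log2 fold change -0.12, adjusted p = 0.969). Neither gene separated the tissues, and Mthfd2 was the closer of the pair to equal means.

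The enzymes of proline synthesis pointed in different directions. Aldh18a1, which starts the path from glutamate, had 195 and 35.8 CPM in omental tumor, against 163 and 278 CPM in spleen. The omental library of mouse 3 was lowest by far, while that of mouse 2 lay between the spleen libraries (log2 fold change -0.93, adjusted p = 0.785). Pycr1, which ends the path, had 4.45 and 3.28 CPM in omental tumor, against 2.83 and 2.01 CPM in spleen. Its levels rested on 34 and 13 reads in omental tumor and 29 and 22 reads in spleen, with both omental values above both spleen values (log2 fold change 0.68, adjusted p = 0.891).

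The 20 genes of cytosolic synthetases gave mostly small negative fold changes. Of them 19 were negative, against 46.4% of all genes tested, and the median was -0.54, with a range of -1.37 to 0.98 and 0 called by edgeR, by its bias-adjusted form, by DESeq2 or by limma-voom (0 at an unadjusted p under 0.05). The size of this median and the number of negative genes depended on the scaling: the number of negative synthetases was 11 of 20 with upper-quartile factors (median -0.073) and 14 with library totals alone (median -0.24). The median of all genes moved with the scaling, from 0.11 with TMM to 0.24 with RLE, 0.60 with upper-quartile factors and 0.36 with library totals. Without the spleen library of mouse 3, 9 of 20 synthetases were negative and their median was 0.063. Relative to the median of all genes the synthetases stood at -0.65 with TMM and between -0.70 and -0.60 with the other 3. Without the spleen library of mouse 3 this relative value was -0.15 and without that of mouse 2 it was -1.25, while without the omental library of mouse 2 or of mouse 3 it was -0.64 or -0.39.

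The negative fold changes lay mostly in mouse 3. In mouse 3, 19 of 20 had the lower level in omental tumor, against 48.1% of all genes, with a median log2 ratio of -1.10. In mouse 2, 7 of 20 were lower, against 46.6% of all genes, with a median of 0.14. Over all genes tested the medians were 0.063 in mouse 2 and 0.073 in mouse 3. Both mice had lower omental levels in 6 synthetases (Qars, Farsa, Farsb, Sars, Vars and Wars), against 31.6% of all genes, and both had higher levels in 0, against 36.9%. The difference between the mice was not tested, since each has 1 library per tissue.

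**Figure D2:**
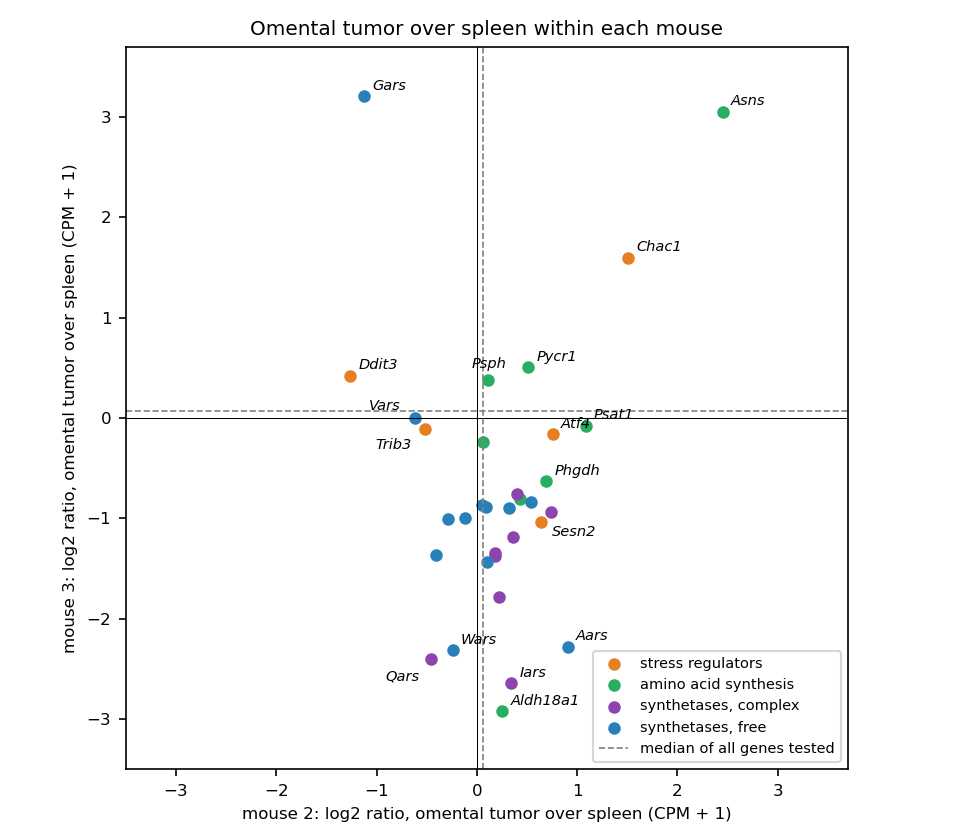
Log2 ratio of omental tumor over spleen in mouse 2 (horizontal axis) and mouse 3 (vertical axis), from CPM with a pseudocount of 1, with 1 point per gene colored by role and dashed lines at the medians of all genes tested. Most synthetases lie near 0 for mouse 2 and below 0 for mouse 3, with medians of 0.14 and -1.10, while Asns and Chac1 are high in both.

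Libraries of the same tissue also differed. In spleen 29 of the 33 members were higher in mouse 3 than in mouse 2, against 46.3% of all genes, with a median log2 ratio of 0.65 over the members and -0.12 over all genes. In omental tumor 27 members were lower in mouse 3 than in mouse 2, against 68.1% of all genes, with medians of -0.63 and -0.55. Of 10 genes of the cell cycle 8 were also higher in mouse 3 in spleen, where the 10 summed to 1054 CPM in mouse 2 and 2394 CPM in mouse 3. In omental tumor they summed to 2140.5 and 1906 CPM. Transcript length moved with the omental contrast between mice: over all genes longer than 2380 bases, the median length of the members, the log2 ratio of mouse 3 over mouse 2 was -0.80, against 0.021 over shorter genes. It was -0.97 over the 16 longer members and -0.32 over the 17 others. The part of the cell cycle and of transcript length in the synthetase values was not tested. Between tissues in mouse 3, the median log2 ratio was -1.19 over the 12 longer synthetases and -1.09 over the 8 shorter, and -0.15 over all longer genes and 0.22 over all shorter ones. Between the omental libraries, mouse 3 over mouse 2, it was -0.97 over the longer synthetases and -0.40 over the shorter.

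In mammals 8 of these genes, Dars, Eprs, Iars, Kars, Lars, Mars, Qars and Rars, encode synthetases held together in a multisynthetase complex. All 8 had negative fold changes under TMM scaling (Eprs, Kars and Rars were positive with upper-quartile factors), with a median of -0.56. Qars, which charges the glutamine tRNA, had 65.8 and 28.0 CPM in omental tumor, against 90.7 and 153 CPM in spleen. Both omental libraries were below both spleen libraries, and its log2 fold change of -1.37 (SE 0.78, adjusted p = 0.623) was the lowest of the 33. Iars, which charges the isoleucine tRNA, had 201 and 34.8 CPM in omental tumor, against 159 and 223 CPM in spleen. Here the omental library of mouse 3 alone was low, and that of mouse 2 lay between the spleen libraries (log2 fold change -0.69, adjusted p = 0.829).

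Eprs, a fused enzyme for glutamate and proline, came closest to equal means in the complex, with 322 and 161 CPM in omental tumor, against 193 and 309 CPM in spleen. The omental libraries held the highest and the lowest value (log2 fold change -0.055, adjusted p = 0.985). Dars, for aspartate, had 283 and 160.0 CPM in omental tumor, against 249.8 and 407 CPM in spleen. Its order, with the spleen library of mouse 3 highest, the omental library of mouse 3 lowest and both libraries of mouse 2 between, was also that of Kars, Lars, Mars and Rars, which charge the tRNAs of lysine, leucine, methionine and arginine. The fold changes of these 5 ran from -0.67 for Mars to -0.20 for Rars.

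The 3 scaffold genes of the same complex, Aimp1, Aimp2 and Eef1e1, had positive fold changes, with a median of 0.25 and 0 called. The sign rested on single libraries: Aimp1 stood at -0.43 and Aimp2 at -0.29 without the omental library of mouse 3. They stood at -0.12 and -0.25 without the spleen library of mouse 2. Aimp1 had 30.5 and 64.8 CPM in omental tumor, against 27.4 and 49.9 CPM in spleen (adjusted p = 0.919). Aimp2 had 41.7 and 72.4 CPM in omental tumor, against 30.5 and 65.0 CPM in spleen (adjusted p = 0.930). In both genes mouse 3 was higher than mouse 2 in each tissue, and the tissues overlapped. The difference between scaffold and enzymes was not tested.

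The other 12 synthetase genes encode enzymes outside the complex and had a median of -0.49. Wars, for tryptophan, a gene also known to be induced by interferon gamma, had 150.2 and 54.0 CPM in omental tumor, against 178 and 273 CPM in spleen. Both omental libraries were below both spleen libraries (log2 fold change -1.14, SE 0.81, adjusted p = 0.728). Farsa and Farsb encode the alpha and beta subunits of the phenylalanine enzyme, which work as a tetramer of both.

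Farsa had 73.7 and 58.8 CPM in omental tumor, against 98.3 and 153 CPM in spleen (log2 fold change -0.92, adjusted p = 0.782). Farsb had 108 and 108 CPM in omental tumor, against 117 and 217 CPM in spleen (log2 fold change -0.62, adjusted p = 0.848). In both subunits the omental libraries lay below both spleen libraries, Farsb being nearly equal in the omental pair. Sars, for serine, had 144 and 144 CPM in omental tumor, against 177 and 289 CPM in spleen. It had the same order, with an omental pair as tight as that of Farsb (log2 fold change -0.69, adjusted p = 0.831).

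Gars, for glycine, was the single synthetase with a positive fold change (0.98, SE 0.76, adjusted p = 0.760), and its mice pointed in opposite directions. It had 27.9 and 118 CPM in omental tumor, against 61.9 and 11.9 CPM in spleen. The omental library was the lower one in mouse 2 and the higher one in mouse 3, where the spleen library was lowest of all 4. Without the omental library of mouse 3 the log2 fold change of Gars was -0.48, and without that of mouse 2 it was 1.67. Vars, for valine, followed the mouse and not the tissue, with 249 and 57.8 CPM in omental tumor, against 382 and 57.9 CPM in spleen. Both libraries of mouse 2 were several times higher than those of mouse 3, which were nearly equal (log2 fold change -0.52, adjusted p = 0.871).

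Aars, for alanine, had 235 and 47.4 CPM in omental tumor, against 125 and 234 CPM in spleen. Its omental library of mouse 3 was well below the other 3 libraries (log2 fold change -0.34, adjusted p = 0.914). In the annotation 15.1% of the exon bases of Aars overlap other genes such as Exosc6, and the same holds for 9.47% of Farsb, 7.97% of Hars and 10.4% of Psph, where reads may have been left unassigned. Cars, Hars, Nars, Tars and Yars, for cysteine, histidine, asparagine, threonine and tyrosine, had log2 fold changes from -0.65 for Tars to -0.16 for Yars, and all overlapped between tissues.

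Where an amino acid has both its synthesis enzyme and its synthetase among the members, their fold changes under TMM scaling differed in size and often in sign. For asparagine, Asns stood at a log2 fold change of 2.81 and Nars at -0.43, with Nars at 221 and 179 CPM in omental tumor, against 207 and 331 CPM in spleen. For serine, Phgdh, Psat1 and Psph stood at -0.029, 0.40 and 0.29, and Sars at -0.69. For glycine, Shmt2 stood at -0.18 and Gars at 0.98. For proline, Aldh18a1 and Pycr1 stood at -0.93 and 0.68, and Eprs at -0.055. Per kilobase of transcript, the scale on which levels of different genes can be compared, mean levels in omental tumor and in spleen were 163 and 23.2 CPM per kilobase for Asns and 72.7 and 98.0 for Nars. Asns thus lay above Nars in omental tumor and below it in spleen on that scale.

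Genes around the members were described from 6 further lists. In 5 of them, scaffold genes included, 0 genes were called by edgeR, its bias-adjusted form, DESeq2 or limma-voom. At an unadjusted p under 0.05 in edgeR's test those lists held 3 of 17 mitochondrial synthetases, all lower in omental tumor. They also held 2 of 11 genes of the unfolded protein response and 1 of 11 other metabolic enzymes tested, all higher. The scaffold and eIF2 lists held 0. Over all genes 4.15% were higher and 4.85% lower at that cut. Of 16 other stress response genes 14 were tested, with a median log2 fold change of 1.44. By mouse the median log2 ratio was 0.63 in mouse 2 and 1.33 in mouse 3. Of the 14, 11 were positive and 3 negative, against 46.4% of all genes negative. Called were 2 risen and 0 fallen, against 1.09% and 0.227% of all genes. Cebpb, a C/EBP partner of ATF4, and Atf5 did not pass the filter on low counts. Cebpb had 1.05 and 15.6 CPM in omental tumor, against 0.390 and 0.456 CPM in spleen, so that the omental library of mouse 3 alone stood high. Atf3, a bZIP factor induced by ATF4 and by many other signals, rose most, with 63.1 and 118 CPM in omental tumor, against 1.37 and 0.821 CPM in spleen. Both omental libraries were far above spleen (log2 fold change 6.36, SE 0.97, adjusted p = 5.98e-08), and Atf3 passed without any 1 library (adjusted p at most 0.0331).

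Slc7a11, the cystine importer, rose by 4.38 (SE 0.87, adjusted p = 0.000142) through 1 library. It had 6.67 and 166 CPM in omental tumor, against 4.68 and 3.56 CPM in spleen. The omental library of mouse 2 was close to spleen, and that of mouse 3 was many times higher. Without it the log2 fold change was 0.61 (adjusted p = 0.938), and with the mouse as a block it was 3.05 (adjusted p = 0.128). Omitting a spleen library also ended the call but left the fold change at 4.54 without mouse 2 (adjusted p = 0.291) and 4.71 without mouse 3 (adjusted p = 0.126). It was 4.57 with library totals alone (adjusted p = 0.201) and 2.87 with limma-voom (adjusted p = 0.0802).

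Upstream of ATF4, the list of eIF2, its 4 kinases and 2 regulatory subunits of its phosphatase had a median of -0.24 over 7 genes and 0 called. Ppp1r15a, encoding GADD34, the inducible subunit that reverses eIF2 phosphorylation, had 497 and 222 CPM in omental tumor, against 146 and 140.3 CPM in spleen. Both omental libraries were above both spleen libraries (log2 fold change 1.33, adjusted p = 0.676). Eif2ak1, the heme-regulated kinase, stood at 103 and 29.0 CPM in omental tumor, against 133 and 104 CPM in spleen (log2 fold change -0.85, adjusted p = 0.794).

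The list of 11 genes of the unfolded protein response of the endoplasmic reticulum had a median of 0.17 and 0 called. Sdf2l1, a chaperone component, had 62.9 and 102 CPM in omental tumor, against 30.0 and 9.03 CPM in spleen (log2 fold change 2.07, adjusted p = 0.261). Ern1, the IRE1 sensor, had 17.3 and 18.4 CPM in omental tumor, against 6.92 and 1.28 CPM in spleen (log2 fold change 2.12, adjusted p = 0.415). In these 2 genes both omental libraries lay above both spleen libraries.

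Of 12 other enzymes of one-carbon, glycine, proline and aspartate metabolism 11 were tested, with a median of -0.24 and 0 called. Got1, a cytosolic enzyme that can form or use aspartate, had 319 and 206 CPM in omental tumor, against 45.3 and 79.6 CPM in spleen. Both omental libraries were above both spleen libraries (log2 fold change 2.07, adjusted p = 0.331). Gldc, of the glycine cleavage system, had 9.03 and 2.78 CPM in omental tumor, against 2.83 and 0.730 CPM in spleen (log2 fold change 1.74, adjusted p = 0.712).

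The 17 mitochondrial synthetases, encoded by separate nuclear genes, had a median of -0.37, with 14 negative and 0 called. Of these genes 14 of 17 were lower in omental tumor in mouse 2, with a median log2 ratio of -0.62, and 10 of 17 in mouse 3, with a median of -1.001. The contrast with the cytosolic enzymes was not tested. Vars2, for valine, had 23.7 and 4.54 CPM in omental tumor, against 45.6 and 61.6 CPM in spleen (log2 fold change -1.91, adjusted p = 0.356). Pars2, for proline, had 6.54 and 3.78 CPM in omental tumor, against 17.4 and 27.4 CPM in spleen (log2 fold change -2.10, adjusted p = 0.381). In both genes the omental libraries were below both spleen libraries. Vars2 passed without the omental library of mouse 2 (log2 fold change -3.57, adjusted p = 0.0245).

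**Figure D3:**
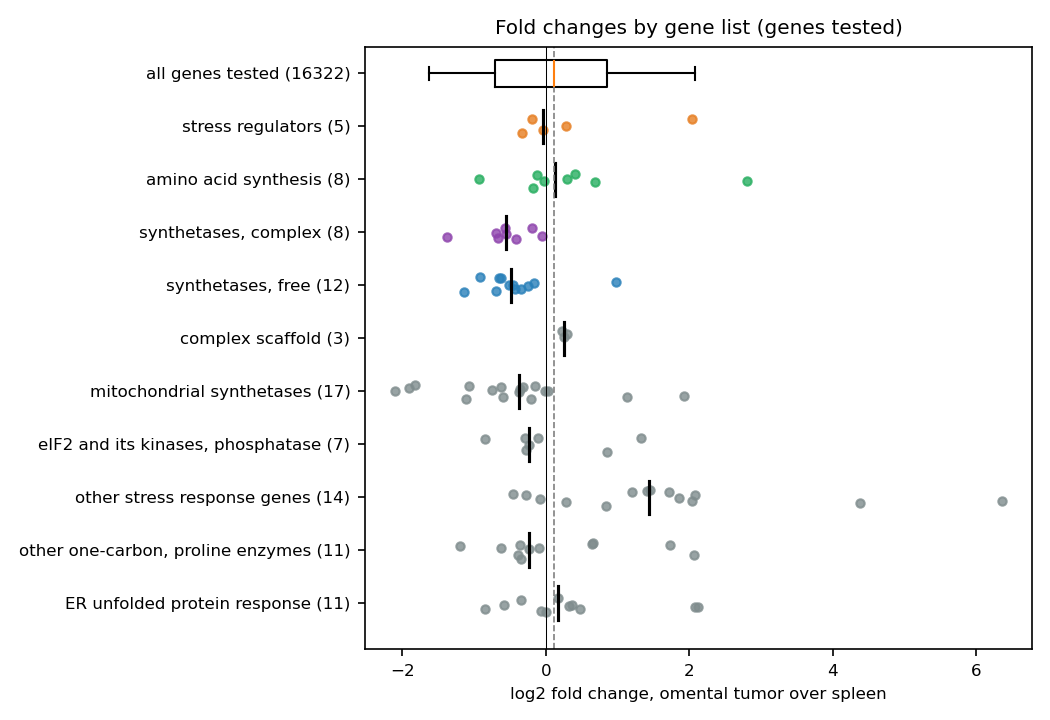
Log2 fold change of omental tumor over spleen for the tested genes of each list, with 1 point per gene, a black bar at each list's median and the number of genes in parentheses. The box at the top shows the quartiles of all 16322 genes tested, with whiskers at the 5th and 95th percentiles and the dashed line at their median of 0.11. Asns stands at 2.81 apart from the other amino acid enzymes. The medians of the synthetase lists lie left of the line, and that of the other stress response genes is 1.44.

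The libraries differed in depth and in traces of other cells, given here because they stand beside the values above. Genes received 3764508 to 6660230 counts in omental tumor and 9989005 to 13598631 in spleen, and the members 12307 to 34698 and 38436 to 59914. The sort markers were present in all 4 libraries: Foxp3 stood at 81.1 and 84.0 CPM in omental tumor, against 113 and 144 CPM in spleen. Il2ra, the gene of CD25, had 688 and 318 CPM in omental tumor, against 697 and 883 CPM in spleen. Cd4 had 375 and 114 CPM in omental tumor, against 566 and 1004 CPM in spleen (log2 fold change -1.68, adjusted p = 0.571). In all 3 genes both omental libraries were below both spleen libraries. All 8 Treg markers were detected in every library, and their sum was 4694 to 5969 CPM in omental tumor and 5956 to 9414 CPM in spleen. Of the 8, 6 had negative and 2 positive fold changes, with a median of -0.64 and 0 called. The 11 T lineage genes at hand summed to 4391 to 4703 CPM in omental tumor and 5976 to 9384 CPM in spleen.

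Of the 9 neutrophil markers listed 8 were in the tables, and 4 rose (S100a8, S100a9, Csf3r and Retnlg), against 1.09% of all genes. With the mouse as a block none of the 4 was called (adjusted p = 0.0978 to 0.837), and limma-voom called 1. They summed to 154 CPM for mouse 2 and 1453 CPM for mouse 3 in omental tumor, against 102 and 69.2 CPM in spleen, with S100a8 at 0.131 and 410.3 CPM in the omental libraries. The sum of 12 macrophage and monocyte markers was 511 and 872 CPM in omental tumor, against 229 and 455 CPM in spleen. Of the 11 tested, 2 rose, against 1.09% of all genes, and 6 had negative fold changes, against 46.4%. Csf1r was lowest at -1.75 (adjusted p = 0.437), and the median was -0.34. The sum of 9 fibroblast and mesothelial markers was 177 and 15.4 CPM in omental tumor, against 13.8 and 6.93 CPM in spleen, with Lum and Wt1 at 0 counts in both libraries of mouse 3. No other listed marker was at 0 in any library. The sums of 6 B cell markers (at most 93.9 CPM) and of 7 genes of immature T cells and lymphoma (at most 73.7 CPM) were low in every library. Of the 5 immature T cell and lymphoma genes tested, 4 had positive fold changes, with a median of 0.97 and 0 called. Both omental libraries lay above both spleen libraries in 2 of the 5 (Dntt and Ptcra) and below both in 1 (Cd8b1). The shares over all genes tested were 16.4% above and 25.4% below. Dntt had 21.9 and 21.2 CPM in omental tumor, against 7.51 and 3.83 CPM in spleen.

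Asns was high in both omental libraries. Both omental libraries also lay above both spleen libraries in 5 of 8 neutrophil markers tested, against 16.4% of all genes. The same held for 4 of 11 macrophage and monocyte markers tested and 3 of 5 fibroblast and mesothelial ones. Of the macrophage and monocyte markers 2 lay below both spleen libraries, against 25.4% of all genes. Lyz2, Cd14 and Mmp9, among those above, were named after their values were seen. Lyz2 rose, with 249 and 296 CPM in omental tumor, against 6.83 and 61.6 CPM in spleen (log2 fold change 2.99, adjusted p = 0.0403). Cd14 rose, with 23.7 and 272 CPM in omental tumor, against 2.63 and 4.83 CPM in spleen (log2 fold change 5.30, adjusted p = 5.6e-06). Mmp9, a neutrophil marker, had 37.7 and 67.9 CPM in omental tumor, against 5.85 and 13.6 CPM in spleen (adjusted p = 0.128). The 9 early response genes summed to 1637 and 1925 CPM in omental tumor, against 995 and 219 CPM in spleen. Junb alone had 1134 and 977 CPM in omental tumor, against 582 and 104 CPM in spleen. Of the 9, 4 were below spleen in mouse 2 and 0 in mouse 3, against 46.6% and 48.1% of all genes. The part of other cell types, of the early response and of handling in the Asns and Atf3 values was not tested. The 11 T lineage genes at hand all had negative fold changes, against 46.4% of all genes tested. Their median was -0.64, beside -0.54 for the synthetases. By mouse, the T lineage medians were -0.54 in mouse 2 and -1.33 in mouse 3, against 0.14 and -1.10 for the synthetases. No T lineage gene was called, and the part of T cell content in the synthetase values was not tested.

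**Figure D4:**
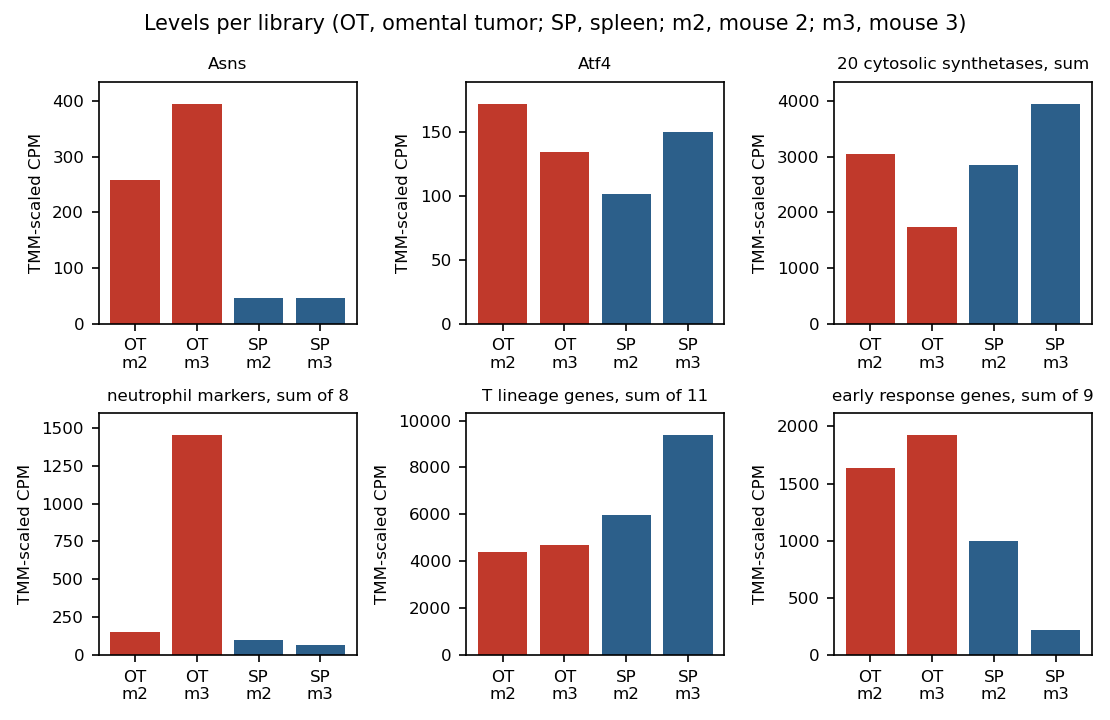
TMM-scaled CPM in each library (OT, omental tumor; SP, spleen; m2, mouse 2; m3, mouse 3) for Asns, Atf4, the sum of the 20 cytosolic synthetases and the sums of 3 marker lists, each on its own linear axis from 0, with 1 bar per library and no error. Asns is high in both omental libraries, the synthetase sum is lowest in the omental library of mouse 3 at 1733 CPM, and the neutrophil sum is high in that library alone at 1453 CPM.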

How the data were processed

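RNA of sorted Tregs was made into cDNA with SMART-seq v4 and into libraries with Nextera XT, per the labels' protocols; neither kit marks strand. Each deposited file holds whole read counts, 1 per gene symbol, made with Trim Galore, TopHat2, SAMtools and HTSeq on mm10, per the submitters' processing notes. The sources used here give no versions, annotation or strand setting. The 5 summary entries of each file, which name no gene, were left out; genes held 17.1% to 46.0% of all entries.

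The comparison was made with edgeR 4.0.16 (R 4.3.3): filterByExpr at a minimum count of 10, TMM, estimateDisp, glmQLFit and glmQLFTest with the package's default settings, tissue alone in the model (2 residual degrees of freedom) and Benjamini-Hochberg adjustment over 16322 genes at 0.05. Adjusted p-values come from this test unless another is named, and each SE was taken as the size of the log2 fold change over the square root of its F value. The prior degrees of freedom were infinite, so SE and p borrow the spread of all genes and do not reflect that of the gene itself. The mouse number in the labels marks the same animal in both tissues and therefore pairs the libraries (correlation of deviations from the tissue means 0.168). Alternatives were RLE, upper-quartile and no factors, no filter, DESeq2 1.42.0, limma-voom (limma 3.58.1), the mouse as a block, other pseudocounts, and each library left out; a lone library was then taken to vary as the pair of the other tissue does. The bias-adjusted glmQLFit was added after seeing the data. Members and lists were chosen with earlier results of these data known. All members are named, and of each pathway list the called genes and the 2 with the smallest p. Positions and transcripts are from GENCODE M21 (GRCm38, the same build as mm10), and lengths are of the longest principal transcript. Counts limit precision only in part, since reads carry no molecular identifiers. The promoter matches of 1 member are not reported here.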

Additional observations from a re-analysis of the deposited data

How the results depend on the processing

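No member was called in the main test, and Asns alone was called higher (1 member) with upper-quartile factors, DESeq2, limma-voom, the bias-adjusted glmQLFit and without the omental library of mouse 2; the range over the 4 omissions was 0 to 1 member. No member was called lower under any alternative run (0 over the 4 omissions). Over all genes, calls numbered 215 (178 higher, 37 lower) in the main test, 26 (24 and 2) with library totals alone, 370 (246 and 124) with DESeq2, 44 to 606 over the 4 omissions (38 to 323 higher and 6 to 283 lower), 107 higher and 56 lower with limma-voom, 13 lower with upper-quartile factors and 67 lower with the replicate block. DESeq2 gave no adjusted p for 3481 genes. The median of the amino acid enzymes was 0.13, 0.69 with upper-quartile factors and -0.31 to 0.70 over the omissions; the medians of all members, the regulators and the synthetases moved by less than their spread between mice. Members whose fold change was near 0 turned sign with scaling, as follows on the log2 scale. With upper-quartile factors the values were Aars 0.10, Cars 0.24, Ddit3 0.40, Eprs 0.43, Hars 0.065, Kars 0.080, Mthfd2 0.43, Nars 0.087, Phgdh 0.49, Rars 0.31, Sesn2 0.42, Shmt2 0.31, Trib3 0.20 and Yars 0.34. With library totals alone the values were Aars 0.014, Cars 0.060, Ddit3 0.046, Eprs 0.27, Mthfd2 0.18, Phgdh 0.30, Rars 0.11, Sesn2 0.27, Shmt2 0.13 and Yars 0.16. With RLE factors the values were Ddit3 0.047, Mthfd2 0.0032 and Phgdh 0.029. With DESeq2 the values were Ddit3 0.050, Mthfd2 0.0030 and Phgdh 0.029. With limma-voom the values were Phgdh 0.032. With the replicate block the values were Phgdh 0.033. Over the 4 omissions the sign turned for 20 of 33 members and for 2 scaffold genes, with ranges of -1.94 to 0.30 for Aars, -0.43 to 1.16 for Aimp1, -0.29 to 1.24 for Aimp2, -0.029 to 0.81 for Atf4, -0.75 to 0.13 for Cars, -1.05 to 0.00042 for Dars, -1.50 to 0.46 for Ddit3, -0.65 to 0.48 for Eprs, -1.06 to 0.14 for Farsb, -0.48 to 2.56 for Gars, -0.87 to 0.24 for Hars, -0.87 to 0.21 for Kars, -0.46 to 0.53 for Mthfd2, -0.79 to 0.18 for Nars, -0.48 to 0.74 for Phgdh, -0.11 to 1.32 for Psat1, -0.55 to 1.24 for Psph, -0.56 to 0.39 for Rars, -0.97 to 0.43 for Sesn2, -0.55 to 0.35 for Shmt2, -1.93 to 1.34 for Vars and -0.55 to 0.45 for Yars. Pairing the libraries by mouse, the replicate block changed no call of a member, and of the named pathway genes only that of Slc7a11, given above with those of the neutrophil markers. The causes of these changes were not tested. With 2 libraries per tissue and the shallowest one from omental tumor, small differences were not detectable, and Chac1 and Pycr1 rested on few reads.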

Other observations

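Lars2, the mitochondrial leucine synthetase, named here after its values were seen, had the most counts of its list by far. Whether its sequence also occurs in other transcripts was not tested, so its level as a gene is uncertain. It stood at 1299 and 17195 CPM in the omental libraries of mouse 2 and mouse 3, against 2110.2 and 2749 CPM in the spleen libraries. The omental library of mouse 3 held most of the difference, and the log2 fold change of 1.93 did not pass edgeR's threshold (adjusted p = 0.587). Because of it, the sum of the 17 mitochondrial synthetases was 17447 CPM in that library, against 1713 to 3318 CPM in the other 3, although the median of the list was negative. The cytosolic leucine synthetase gene Lars stood at 152 and 78.0 CPM in omental tumor, against 134 and 203 CPM in spleen.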
